A study of Homo sapiens with 12 samples.

Results

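The genes that encode the subunits of RNA polymerase I, II and III were examined in 2 human acute myeloid leukemia (AML) cell lines treated with duocarmycin Stable A (DSA), a natural product that alkylates adenine bases in the minor groove of DNA. The genes were taken by name, as all protein-coding genes whose symbol is POLR1, POLR2 or POLR3 followed by a letter, with no use of any measured value. This gave 34 gene identifiers with 33 symbols, because POLR2J3 stands for 2 identifiers, out of 60617 identifiers counted and 19868 protein-coding genes of annotation level 1 or 2. The study asked how these cells change their gene expression under DSA, and RNA was sequenced from 12 samples in 6 groups of 2.

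HL-60 cells, an established promyelocytic line grown in IMDM medium, were untreated or exposed to 112.7 pM DSA (low) or 500 pM DSA (high) for 36 h. Molm-14 cells, an established AML line with monocytic features grown in RPMI medium with less serum, were untreated or exposed to 11.1 pM (low) or 100 pM (high) for the same time. The labels call the control samples untreated, while the study's methods speak of a vehicle. Each line stands for 1 patient's leukemia, and medium and serum differed between the lines, so that neither can be told apart from the line. The doses differed as well, and only 112.7 pM in HL-60 and 100 pM in Molm-14 were close to each other. The labels do not say that the 2 samples of a group came from separate cultures, so the p-values cover only how far these samples differ, and that spread may be technical.

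Library totals ran from 21168248 to 63900113 expected counts, and single members had between 37 and 17575 counts in a library. Levels are given as CPM, counts divided by library size after scaling by the trimmed mean of M-values (TMM). The labelled lines were checked against marker genes. MPO stood at 15650 to 15710 CPM in untreated HL-60 libraries, against 144 to 154 CPM in untreated Molm-14 libraries, and HOXA9 at 0.027 to 0.085 CPM in HL-60, against 118 to 120 CPM in Molm-14. ELANE, AZU1 and CTSG, listed as HL-60 markers, were however higher in Molm-14, and CD14, listed for Molm-14, had 41 and 55 counts in untreated HL-60 libraries and 3 and 2 counts in untreated Molm-14 libraries. Erythroid markers had no counts in any library. The 5 HL-60 markers (MPO, ELANE, AZU1, PRTN3 and CTSG) summed to 18313 to 18692 CPM in untreated HL-60 libraries, 14065 to 14457 CPM at 112.7 pM and 6540 to 6667 CPM at 500 pM, but in Molm-14 to 3516 to 3677 CPM untreated, 3502 to 3729 CPM at 11.1 pM and 4109 to 4235 CPM at 100 pM. The 6 Molm-14 markers (HOXA9, HOXA10, MEIS1, FLT3, CD14 and LYZ) summed to 63.8 to 68.6 CPM in untreated HL-60 libraries, 90.6 to 93.9 CPM at 112.7 pM and 156 to 162 CPM at 500 pM, and in Molm-14 to 1058 to 1095 CPM untreated, 1080 to 1113 CPM at 11.1 pM and 1545 to 1562 CPM at 100 pM. Within that list the monocyte gene CD14 reached 20.8 to 23.1 CPM in HL-60 at 500 pM, against 0.933 to 1.099 CPM untreated, and LYZ reached 983.8 to 984.6 CPM in Molm-14 at 100 pM, against 409 to 428 CPM untreated. The mitochondrial share of counts moved with the dose as well, at 4.64% and 5.46% in HL-60 libraries at 500 pM, against 2.22% and 2.47% untreated, and at 2.72% and 4.10% in Molm-14 libraries at 100 pM, against 1.47% and 1.68% untreated. The part of these shifts in the results was not tested, and in these bulk samples fewer cells of a kind and less RNA per cell cannot be told apart.

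RNA polymerase I transcribes the large ribosomal RNA precursor, RNA polymerase II makes messenger RNA, and RNA polymerase III makes transfer RNA, the small ribosomal RNA and other short RNAs. Each enzyme has a pair of large catalytic subunits of its own, a stalk, and a set of small subunits, some of which are common to all the enzymes. In mammalian Pol III, POLR3G and POLR3GL encode alternative versions of the same subunit; POLR3G is the version typical of stem cells and tumors, and POLR3GL that of differentiated tissues.

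Promoter windows of RefSeq (GRCh38.p14, 250 bases before to 50 bases after a gene's start) were on hand for 24 member genes with 30 windows. The 4 shown are those of POLR3GL, which rose at the high dose in both lines, and of POLR3E, POLR1G and POLR3A, which hold the E-box hexamer CACGTG that MYC and its relatives bind. The capitals mark exact matches, on either strand, to the E-box CACGTG, the GC box GGGCGG, the CCAAT box CCAAT, the ETS core CCGGAAG and the B box, the internal promoter element of tRNA genes. The windows lie at chr1:145964440-145964739 (plus strand), chr16:22297159-22297458 (plus strand), chr19:45406394-45406693 (plus strand) and chr10:78029466-78029765 (minus strand), in the order printed.
POLR3GL: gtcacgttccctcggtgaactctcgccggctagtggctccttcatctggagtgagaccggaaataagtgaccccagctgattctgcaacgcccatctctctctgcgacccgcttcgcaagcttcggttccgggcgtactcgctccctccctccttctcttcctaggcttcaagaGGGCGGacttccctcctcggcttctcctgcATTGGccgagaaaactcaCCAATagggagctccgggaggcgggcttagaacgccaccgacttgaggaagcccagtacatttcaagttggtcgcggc
POLR3E: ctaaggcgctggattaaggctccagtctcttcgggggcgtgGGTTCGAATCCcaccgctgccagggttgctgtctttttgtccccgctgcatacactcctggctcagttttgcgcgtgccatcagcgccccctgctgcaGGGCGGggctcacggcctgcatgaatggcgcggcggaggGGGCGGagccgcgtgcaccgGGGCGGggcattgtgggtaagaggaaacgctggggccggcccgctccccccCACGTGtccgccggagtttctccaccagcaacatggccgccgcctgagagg
POLR1G: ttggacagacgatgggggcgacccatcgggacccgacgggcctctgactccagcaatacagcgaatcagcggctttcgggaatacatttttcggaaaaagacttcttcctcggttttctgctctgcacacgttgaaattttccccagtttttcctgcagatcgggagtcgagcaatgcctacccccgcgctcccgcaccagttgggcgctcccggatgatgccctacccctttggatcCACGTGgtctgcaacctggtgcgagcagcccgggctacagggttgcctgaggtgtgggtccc
POLR3A: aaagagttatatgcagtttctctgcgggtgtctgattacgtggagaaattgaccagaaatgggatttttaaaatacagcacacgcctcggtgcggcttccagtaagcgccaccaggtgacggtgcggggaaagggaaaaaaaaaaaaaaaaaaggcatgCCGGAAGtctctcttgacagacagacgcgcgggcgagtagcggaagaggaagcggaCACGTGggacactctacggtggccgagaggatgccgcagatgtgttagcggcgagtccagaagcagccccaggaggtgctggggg
The E-box was in 4 of the 30 member windows, with POLR3C as the remaining gene, and in 7.26% of all 35116 windows. It lay 12 bases before the start in POLR1G, 35 bases before it in POLR3A and 1 base before it in POLR3E. The ETS core was in 11 member windows and 10.3% of all windows, the GC box in 21 and 45.0%, and the CCAAT box in 6 and 34.6%. The B box was in the POLR3E window alone among the members, 209 bases before the start, and in 0.0826% of all windows. POLR3GL held a GC box and 2 CCAAT boxes, the CCAAT boxes 46 and 28 bases before its start. These matches are letters in a window and carry no evidence of binding.

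Per unit of length, in the deposited TPM, subunits found only in Pol III had the lowest median of any class, at 25.8 TPM in untreated HL-60 and 29.4 TPM in untreated Molm-14, against 184 and 96.1 TPM for the subunits shared by all 3 enzymes. POLR2E, a subunit common to all 3 enzymes, was highest in both untreated lines, at a mean of 322 TPM in HL-60 and 234 TPM in Molm-14. POLR2J2, a copy of POLR2J, was lowest, at 1.05 TPM in HL-60 and 2.94 TPM in Molm-14, against medians over the members of 57.0 and 46.0 TPM. POLR3F and POLR3B, the second-largest Pol III subunit, were also low, POLR3B with 9.78 TPM in untreated HL-60 and 13.8 TPM in untreated Molm-14 and POLR3F with 16.3 and 7.36 TPM. In the order of mean TPM, 11 of 33 neighbouring pairs in untreated HL-60 and 13 of 33 in untreated Molm-14 overlapped between libraries and so were not separated.

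At the high dose most subunit genes fell in HL-60 cells. In HL-60 at 500 pM against untreated, 27 of 34 members were lower and 3 higher (edgeR quasi-likelihood test, Benjamini-Hochberg adjusted p under 0.05 over 13422 genes), where 37.8% and 35.8% of all genes were lower and higher. The median log2 fold change was −0.34 over the members and 0.00 over all genes tested, and the members spanned −1.60 to 1.05. The upper end was POLR2J2, a copy of POLR2J, which came to 0.19 without high-dose replicate 2. The 3 higher were POLR3GL, POLR2J2 and the second POLR2J3 identifier. The POLR2J copies summed came to −0.07 (edgeR adjusted p = 0.253). When libraries were scaled by total counts alone, which moved the median of all genes to 0.18, the members split into 21 lower and 7 higher, and the lower share of all called genes went to 34.9%, against 51.4% with TMM.

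In Molm-14 at 100 pM against untreated, 20 members were lower and 2 higher, where 21.9% and 22.9% of all genes were lower and higher. The median change was −0.18 on the log2 scale over the members, against 0.00 over all genes, and the range of −0.51 to 0.36 was narrower than in HL-60. The 2 that rose were POLR3GL and POLR2A, and POLR2A was no longer called without untreated replicate 1 or without high-dose replicate 1, which left 1. All 20 genes called lower in Molm-14 were also called lower in HL-60, which makes 100% of the Molm-14 list and 74.1% of the HL-60 list. For all genes tested the same shares were 68.1% and 39.4%. As 27 of 34 members were lower in HL-60, against 37.8% of all genes, a large overlap of the members needs no link between the lines. The 2 lines share no library. Some of the 20 shared calls were weak. POLR3C in HL-60 came to 0.09 with total-count scaling, and POLR2J in Molm-14 to 0.014 with its copies summed. In Molm-14, POLR1A, POLR2C, POLR2J, POLR3E and POLR3F lost the call when single libraries were left out.

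**Figure D1:**
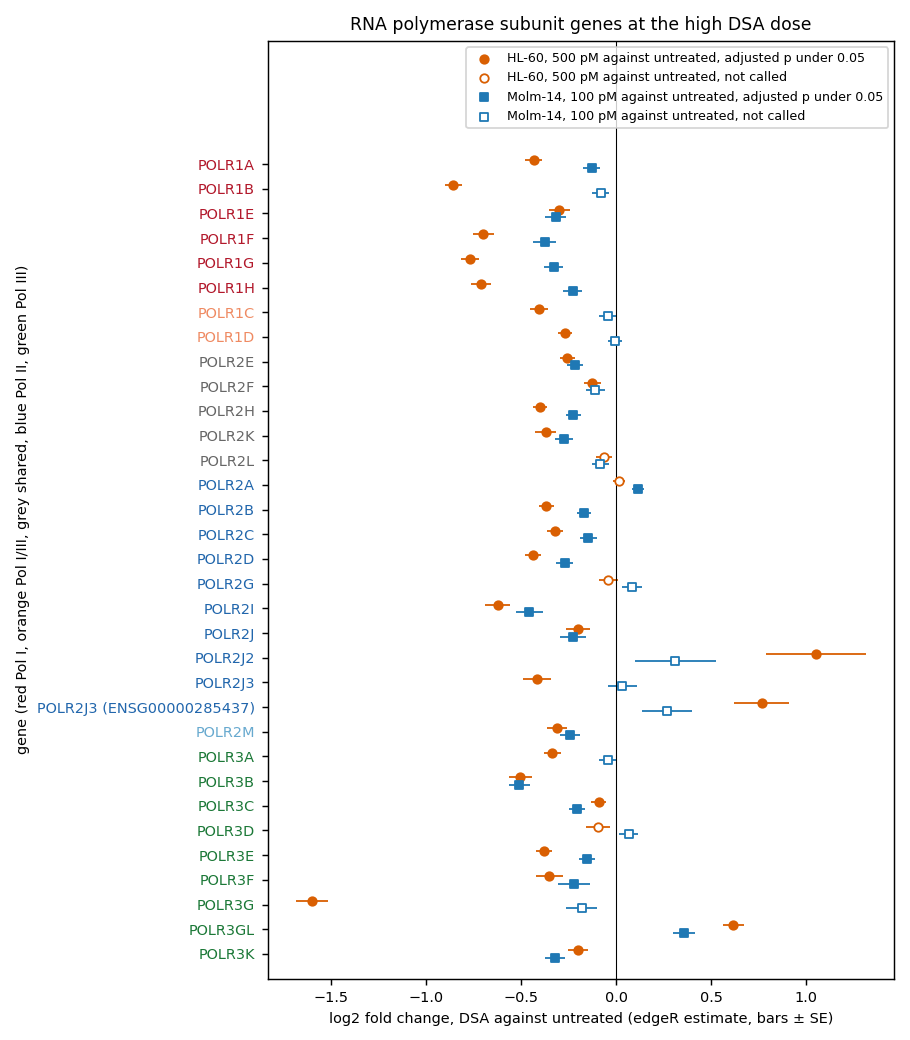
Log2 fold change (x axis, edgeR estimate with bars of ± SE) of 33 subunit genes (y axis, grouped by enzyme) at the high DSA dose against untreated, for HL-60 (circles, 500 pM) and Molm-14 (squares, 100 pM), 2 libraries per group. Filled marks were called at an adjusted p under 0.05. Most lie to the left of 0 in both lines. POLR3GL, POLR2A, POLR2J2 and the second POLR2J3 lie to the right of 0 in both, and of these only POLR3GL was called in both. Scaled by total counts alone, POLR2F, POLR2G, POLR2L, POLR3C and POLR3D also lay to the right of 0 in HL-60.

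The subunits found only in Pol I fell together. All 6 were lower in HL-60 at 500 pM, with a median log2 fold change of −0.71, and 5 of 6 in Molm-14 at 100 pM, with a median of −0.28. The direction was the same with total-count scaling, where POLR1E in HL-60 (adjusted p = 0.0696) and POLR1A in Molm-14 (adjusted p = 0.0931) were no longer called.

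POLR1B (chr2:112541915-112579818, plus strand), the second-largest subunit, had 136 and 126 CPM in untreated HL-60 libraries, 109 and 107 CPM at 112.7 pM and 69.9 and 74.2 CPM at 500 pM. The 3 HL-60 groups did not overlap, and the level stepped down at each dose. The log2 fold change at 500 pM was −0.86 ± 0.046 (SE, edgeR, adjusted p = 5.22e-12). In Molm-14 libraries POLR1B stood at 105 and 105 CPM untreated, 108 and 110 CPM at 11.1 pM and 95.6 and 102 CPM at 100 pM. The high-dose libraries lay just below the untreated ones, and the change of −0.08 ± 0.045 was not called (adjusted p = 0.147).

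POLR1A (chr2:86020216-86106155, minus strand), the largest subunit, also fell in HL-60. It had 230 and 218 CPM in untreated HL-60 libraries, 198 and 188 CPM at 112.7 pM and 158 and 173 CPM at 500 pM, without overlap between the doses. The log2 fold change at 500 pM was −0.44 ± 0.044 (edgeR adjusted p = 4.76e-08). In Molm-14 it was −0.13 ± 0.045 at 100 pM (adjusted p = 0.0256), and it was not called after any one of the 4 libraries compared was left out (adjusted p 0.0816 to 0.111).

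POLR1F (chr7:19695461-19709037, minus strand), the stalk subunit, had 92.4 and 85.6 CPM in untreated HL-60 libraries, 64.2 and 59.2 CPM at 112.7 pM and 55.3 and 54.2 CPM at 500 pM. Most of its fall was already present at the low dose, with log2 fold changes of −0.53 ± 0.057 at 112.7 pM (edgeR adjusted p = 3.64e-07) and −0.70 ± 0.057 at 500 pM (adjusted p = 2.02e-09). Among Pol I subunits it also fell furthest in Molm-14, at 46.3 and 45.7 CPM at 100 pM, against 59.4 and 60.3 CPM untreated, a change of −0.38 ± 0.059 (adjusted p = 3.79e-05).

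POLR1G (chr19:45406644-45410737, plus strand), one of the heterodimer that stimulates initiation and elongation by Pol I, had 107 and 103 CPM in untreated HL-60 libraries, 93.4 and 92.1 CPM at 112.7 pM and 59.5 and 62.9 CPM at 500 pM. Unlike POLR1F it fell mainly between the low and the high dose, with a log2 fold change of −0.77 ± 0.048 at 500 pM against untreated (edgeR adjusted p = 4.66e-11). In Molm-14 it had 54.1 and 49.5 CPM at 100 pM, against 64.4 and 65.8 CPM untreated, a change of −0.33 ± 0.050 (adjusted p = 2.91e-05). Of its exonic bases, 49.8% overlap ERCC1, a DNA repair gene on the opposite strand, and the sources used here do not say whether counting used strand. ERCC1 changed by −0.30 in HL-60 at 500 pM (adjusted p = 2.31e-05) and by 0.04 in Molm-14 at 100 pM (adjusted p = 0.502).

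POLR1H, the small subunit that takes part in cleaving the nascent RNA, had 31.4 and 33.3 CPM in HL-60 at 500 pM, against 54.3 and 52.1 CPM untreated, and POLR1E, the partner of POLR1G, had 48.5 and 51.4 CPM, against 64.3 and 59.5 CPM. Their log2 fold changes were −0.71 ± 0.052 and −0.30 ± 0.056 (edgeR adjusted p = 4.64e-10 and 8.43e-05). In Molm-14 at 100 pM they were −0.23 ± 0.051 and −0.32 ± 0.055 (adjusted p = 0.00103 and 0.000109). POLR1E was thus the Pol I subunit with the least change in HL-60. POLR1C and POLR1D, which form the assembly platform shared by Pol I and Pol III, were lower in HL-60 at 500 pM, by −0.41 ± 0.048 (adjusted p = 3.9e-07) and −0.27 ± 0.037 (adjusted p = 1.9e-06). In Molm-14 at 100 pM their changes of −0.04 and −0.01 were not called (adjusted p = 0.485 and 0.903).

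**Figure D2:**
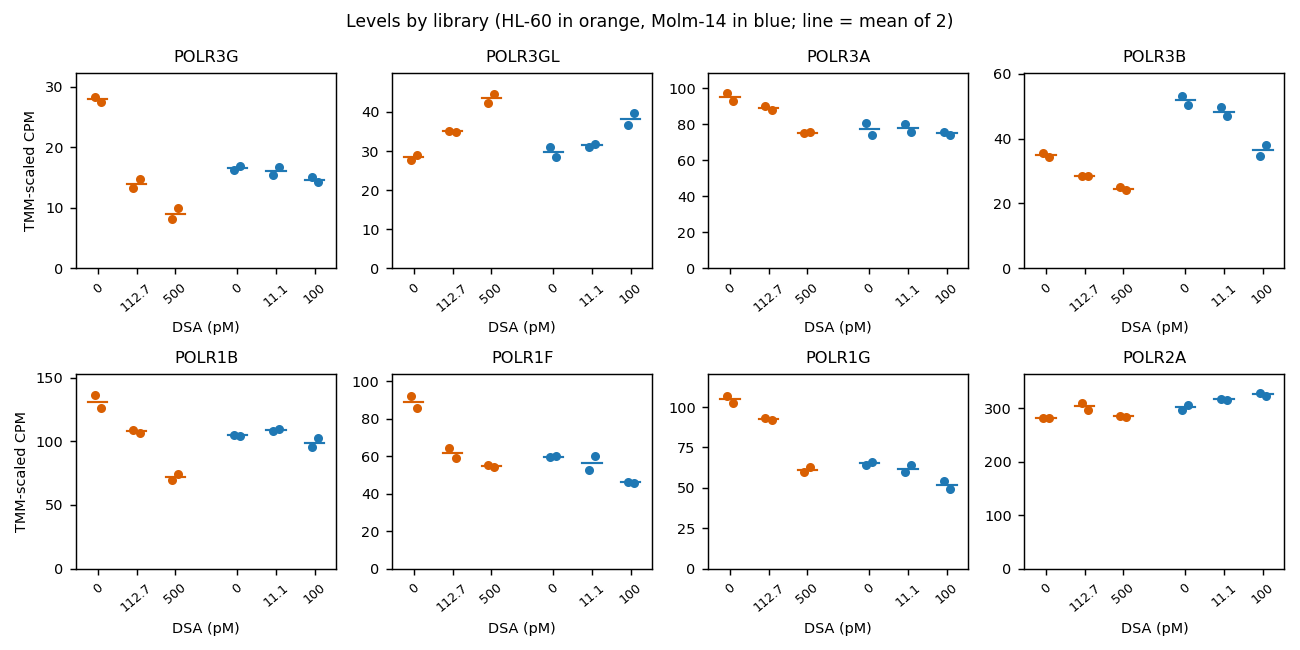
TMM-scaled CPM (y axis, from 0) of 8 subunit genes by DSA dose (x axis, pM), for HL-60 (orange) and Molm-14 (blue). Each point is 1 library and each line the mean of 2; POLR3G in HL-60 drops to 8.15 and 9.95 CPM at 500 pM, POLR3GL climbs to 42.4 and 44.5 CPM, and POLR2A stays between 282 and 330 CPM in all 12 libraries.

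Of the 5 subunits shared by all 3 enzymes, 4 were lower in HL-60 at 500 pM and 3 in Molm-14 at 100 pM. POLR2E, the most abundant, had 248 and 244 CPM in HL-60 at 500 pM, against 290 and 298 CPM untreated, and 201 and 184 CPM in Molm-14 at 100 pM, against 225 and 222 CPM untreated. Its log2 fold changes were −0.26 ± 0.040 (edgeR adjusted p = 1.14e-05) and −0.22 ± 0.041 (adjusted p = 0.000235), and the difference between the lines was −0.04 ± 0.057 (adjusted p = 0.589). With total-count scaling the change in HL-60 was −0.08 and was not called (adjusted p = 0.0931). POLR2H fell by 0.40 in HL-60 and by 0.23 in Molm-14, and POLR2K by 0.37 and 0.27, all on the log2 scale (adjusted p from 1.67e-08 to 0.000155). POLR2F fell by 0.13 in HL-60 with TMM (adjusted p = 0.0124) but had 0.06 with total-count scaling (adjusted p = 0.228), and it was not called without untreated replicate 2 or without high-dose replicate 2 (adjusted p = 0.076 and 0.129). POLR2L was at −0.07 with TMM in HL-60, where it was not called (adjusted p = 0.146), and at 0.12 with total counts (adjusted p = 0.0137). Of its exonic bases 22.8% overlap CD151, which rose by 0.43 in HL-60 at 500 pM (adjusted p = 6.83e-09).

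The Pol II subunits did not all move together. Among the 10 identifiers particular to Pol II, 6 were lower and 2 higher in HL-60 at 500 pM, where 37.8% and 35.8% of all genes were. In Molm-14 at 100 pM 5 were lower and 1, POLR2A, higher, where 21.9% and 22.9% of all genes were. The 2 higher in HL-60 were POLR2J2 and the second POLR2J3, whose counts are uncertain, as given below. POLR2A (chr17:7484366-7514616, plus strand) encodes the largest subunit, whose C-terminal tail is phosphorylated during transcription. It had 282 and 282 CPM in untreated HL-60 libraries, 310 and 297 CPM at 112.7 pM and 286 and 284 CPM at 500 pM. In Molm-14 it had 298 and 306 CPM untreated, 318 and 316 CPM at 11.1 pM and 330 and 323 CPM at 100 pM. Against untreated cells it was not lower in either line, and the log2 fold change at the high dose was 0.01 ± 0.032 in HL-60 (edgeR adjusted p = 0.71) and 0.11 ± 0.032 in Molm-14 (adjusted p = 0.00679). With total-count scaling it was called higher in HL-60 too, at 0.20 (adjusted p = 2.57e-05), and in Molm-14 at 0.15 (adjusted p = 0.00116). Between the HL-60 doses it was lower at 500 pM than at 112.7 pM, a change of −0.09 ± 0.032 (adjusted p = 0.0238), and this was 0.02 with total counts (adjusted p = 0.655) and was not called without low-dose replicate 1 or high-dose replicate 2 (adjusted p = 0.184 and 0.0901).

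The second-largest subunit, POLR2B, did fall, by 0.37 ± 0.038 on the log2 scale in HL-60 (edgeR adjusted p = 5.73e-08) and by 0.17 ± 0.037 in Molm-14 (adjusted p = 0.000938). POLR2D, a stalk subunit, had 85.1 and 92.3 CPM in HL-60 at 500 pM, against 121 and 120 CPM untreated, a change of −0.44 ± 0.041 (adjusted p = 1.51e-08). Its stalk partner POLR2G was at −0.04 ± 0.050 in HL-60 (adjusted p = 0.457), and at 0.14 with total-count scaling, and at 0.08 ± 0.053 in Molm-14 (adjusted p = 0.216). The genes of the stalk heterodimer therefore did not share a call at the high dose, although the difference between them was not tested. POLR2C, which encodes a subunit of the assembly platform, was lower in HL-60 by 0.32 and in Molm-14 by 0.15 (adjusted p = 1.24e-06 and 0.0111), and it was not called in Molm-14 without untreated replicate 1 or high-dose replicate 1 (adjusted p = 0.0942 and 0.0809).

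The largest Pol II decrease in both lines was that of POLR2I (chr19:36113709-36115213, minus strand), a small subunit that bears on transcriptional fidelity. It had 37.0 and 34.7 CPM in HL-60 at 500 pM, against 52.8 and 57.2 CPM untreated, and 30.8 and 27.0 CPM in Molm-14 at 100 pM, against 41.6 and 38.0 CPM untreated. The groups did not overlap, and the log2 fold changes were −0.62 ± 0.066 (edgeR adjusted p = 8.13e-08) and −0.46 ± 0.070 (adjusted p = 2.65e-05). Of its exonic bases 69.0% are shared with an annotated entry on the opposite strand that had few counts. TBCB, also on the opposite strand, overlaps 19.1% of them and stood at 48.81 to 65.42 CPM. TBCB changed by −0.06 in HL-60 at 500 pM (edgeR adjusted p = 0.274) and by −0.10 in Molm-14 at 100 pM (adjusted p = 0.105). Whether reads were divided between TBCB and POLR2I was not tested. POLR2M, which encodes the Pol II inhibitor Gdown1, fell by 0.31 in HL-60 and by 0.24 in Molm-14 (adjusted p = 2.58e-05 and 0.000675).

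POLR2J, a platform subunit, has copies on chromosome 7 with nearly the same sequence, POLR2J2 and POLR2J3, and the annotation lists POLR2J3 under a second identifier, ENSG00000285437. Of the 50-base stretches of its main transcript, 87.4% of POLR2J2 and 100% of the second POLR2J3 occurred in another copy, against 28.2% of POLR2J and 21.3% of the first POLR2J3, so the counts of single copies are uncertain. For POLR2J2 that transcript has 495 bases, while its effective length was 1886 and 1877 bases in untreated HL-60. The share may therefore not hold for all the sequence counted. POLR2J2 had 2.01 and 4.92 CPM in HL-60 at 500 pM, against 1.72 and 1.80 CPM untreated, and only replicate 2 stood apart. Its log2 fold change of 1.05 ± 0.26 (edgeR adjusted p = 0.00142) was 0.19 without that library (adjusted p = 0.546). The second POLR2J3 had 19.5 and 29.8 CPM, against 15.9 and 14.0 CPM, with replicate 2 again the higher, a change of 0.76 ± 0.15 (adjusted p = 0.000118). The first POLR2J3 was lower, by 0.42 ± 0.076 (adjusted p = 6.79e-05), and POLR2J by 0.20 ± 0.063 (adjusted p = 0.00767, but 0.0888 without untreated replicate 2 and 0.811 with total counts).

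Summed over the 4 identifiers, these opposite calls were gone. The sum was 111 and 122 CPM in HL-60 at 500 pM, against 120 and 125 CPM untreated, and the groups overlapped. It changed by −0.07 ± 0.051 on the log2 scale in HL-60 (edgeR adjusted p = 0.253) and by 0.01 ± 0.052 in Molm-14 at 100 pM (adjusted p = 0.872). UPK3BL2, which shares 42.3% of the exonic bases of the first POLR2J3 on the same strand, rose by 1.79 in HL-60 at 500 pM (adjusted p = 9.81e-10).

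**Figure D3:**
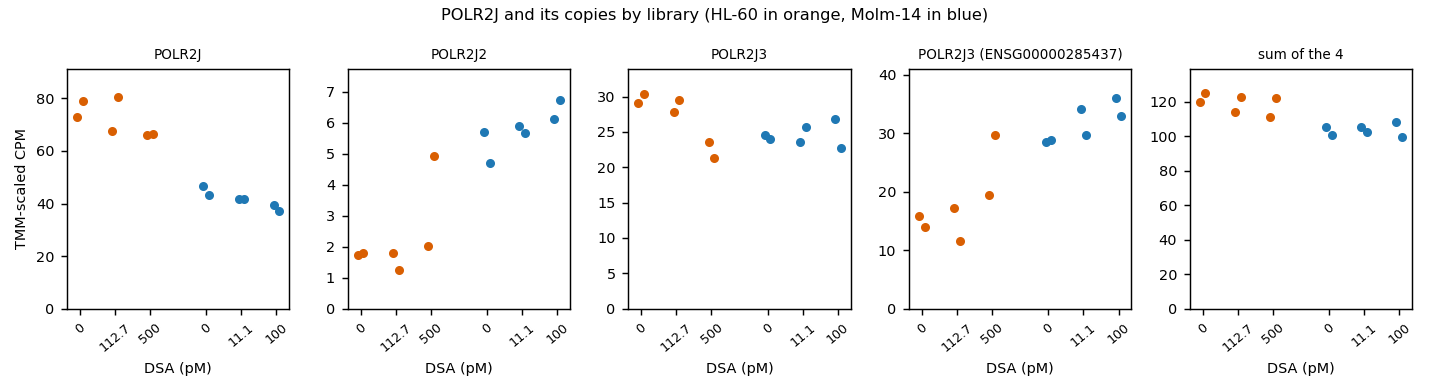
TMM-scaled CPM (y axis, from 0, a scale of its own in each panel) of POLR2J, its copies and the sum of the 4 identifiers by DSA dose (x axis, pM), for HL-60 (orange) and Molm-14 (blue), with each point 1 library. The HL-60 library labelled 500 pM replicate 2 stands above the other HL-60 libraries for POLR2J2 (4.92 CPM) and for the second POLR2J3 (29.8 CPM), and not in the sum (122 CPM).

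The widest spread of changes was among the 10 subunits found only in Pol III. In HL-60 at 500 pM 8 were lower and 1 higher, and in Molm-14 at 100 pM 6 were lower and 1 higher. POLR3G (chr5:90471748-90514557, plus strand) had 28.3 and 27.6 CPM in untreated HL-60 libraries, 13.3 and 14.7 CPM at 112.7 pM and 8.15 and 9.95 CPM at 500 pM. The 3 groups were well apart, and the log2 fold changes of −0.99 ± 0.078 at 112.7 pM (edgeR adjusted p = 9.38e-09) and −1.60 ± 0.083 at 500 pM (adjusted p = 3.1e-12) were the lowest of any member in both comparisons. In Molm-14 it had 16.3 and 17.0 CPM untreated, 15.5 and 16.8 CPM at 11.1 pM and 15.0 and 14.3 CPM at 100 pM, and the high-dose change of −0.18 ± 0.081 was not called (adjusted p = 0.0733), but without a filter on low counts it was, at −0.20 (adjusted p = 0.0389). These are counts without regard to length. In TPM the Molm-14 mean was 10.5 at 100 pM, against 15.5 untreated.

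Its counterpart POLR3GL (chr1:145964690-145978848, plus strand), whose promoter is among those printed, went the other way. It had 27.8 and 29.0 CPM in untreated HL-60 libraries, 35.1 and 35.0 CPM at 112.7 pM and 42.4 and 44.5 CPM at 500 pM, with log2 fold changes of 0.30 ± 0.058 (edgeR adjusted p = 0.000271) and 0.62 ± 0.056 (adjusted p = 9.94e-09). In Molm-14 it had 31.1 and 28.6 CPM untreated, 31.1 and 31.9 CPM at 11.1 pM and 36.7 and 39.6 CPM at 100 pM, a change of 0.36 ± 0.057 at the high dose (adjusted p = 5.1e-05). The high-dose libraries lay above all others of their line. No 50-base stretch was common to the main transcripts of POLR3G and POLR3GL, so their reads could be kept apart.

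As a share of the TPM of both, POLR3G made up 36.5% and 35.5% in untreated HL-60 libraries, 25.3% and 23.5% at 112.7 pM and 12.7% and 15.8% at 500 pM. In Molm-14 the share was 30.7% and 33.0% untreated, 29.4% and 28.7% at 11.1 pM and 21.5% and 18.9% at 100 pM. It was thus lower at the high dose in both lines, without overlap with the untreated libraries. TPM depends on the effective length that was estimated for POLR3G in each library, and this was 1272 and 1152 bases in HL-60 at 500 pM, against 1725 and 1658 bases untreated, but 1442 and 1500 bases in Molm-14 at 100 pM, against 1121 and 1163 bases untreated. The share is given as a description, with no test.

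**Figure D4:**
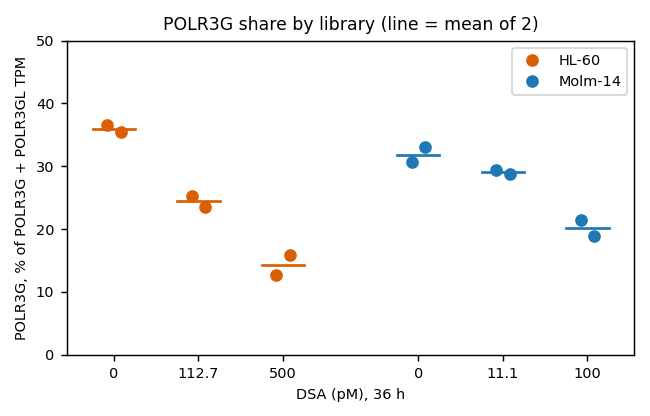
POLR3G as a percentage of the summed TPM of POLR3G and POLR3GL (y axis, from 0) by DSA dose (x axis, pM), for HL-60 (orange) and Molm-14 (blue). Each point is 1 library and each line the mean of 2; HL-60 lies at 12.7% to 15.8% at 500 pM, against 35.5% to 36.5% untreated, and Molm-14 at 18.9% to 21.5% at 100 pM, against 30.7% to 33.0% untreated.

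Of the Pol III catalytic pair, POLR3B (chr12:106357748-106510198, plus strand) fell in both lines. It had 25.1 and 24.1 CPM in HL-60 at 500 pM, against 35.4 and 34.3 CPM untreated, and 34.8 and 38.0 CPM in Molm-14 at 100 pM, against 53.2 and 50.4 CPM untreated. The log2 fold changes were −0.51 ± 0.060 in HL-60 (edgeR adjusted p = 3.38e-07) and −0.51 ± 0.054 in Molm-14 (adjusted p = 3.36e-07), which is the lowest of any member in Molm-14. The largest subunit, POLR3A, was lower in HL-60 by 0.34 (adjusted p = 2.37e-06), with 75.1 and 75.5 CPM at 500 pM, against 97.3 and 93.2 CPM untreated. In Molm-14 its change of −0.04 was not called (adjusted p = 0.477).

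POLR3E, POLR3F and POLR3K were lower in both lines, with log2 fold changes of −0.38, −0.35 and −0.20 in HL-60 and of −0.15, −0.22 and −0.32 in Molm-14. POLR3F in Molm-14 (adjusted p = 0.0411) was not called without untreated replicate 1, high-dose replicate 1 or high-dose replicate 2 (adjusted p 0.054 to 0.275) or with total counts (adjusted p = 0.0781), POLR3E in Molm-14 was not called without untreated replicate 2 (adjusted p = 0.0888), and POLR3K in HL-60 came to −0.02 with total-count scaling (adjusted p = 0.772). POLR3C, which sits beside POLR3F and POLR3G in the subcomplex that opens the promoter, fell by 0.21 in Molm-14 (edgeR adjusted p = 0.000336) and by 0.09 in HL-60 with TMM (adjusted p = 0.0299). In HL-60 it had 0.09 with total-count scaling (adjusted p = 0.0328), and it was not called after any one of the 4 libraries compared was left out (adjusted p 0.0536 to 0.102). POLR3D was called in neither line (adjusted p = 0.182 in HL-60 and 0.344 in Molm-14). Without untreated replicate 2 it was called lower in HL-60, at −0.20 against −0.10 with all libraries (adjusted p = 0.0137), and with total counts it was at 0.09 (adjusted p = 0.228). Its difference between the lines, −0.16 (adjusted p = 0.108), was called without that library as well, at −0.27 (adjusted p = 0.0107).

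At the low doses members were called in HL-60 and not in Molm-14, a difference that was not tested. In HL-60 at 112.7 pM against untreated, 17 members were lower and 4 higher, where 27.4% and 24.2% of all genes were lower and higher, and the median change of the members was −0.11 on the log2 scale. Of the Pol I subunits 5 of 6 were lower, and of the Pol III subunits 6 of 10. Among the lower members, POLR2K was not called after any 1 of the libraries compared was left out (log2 fold changes −0.121 to −0.165). POLR3C, POLR2B, POLR1D and POLR3E also lost the call when some of these libraries were left out singly. The 4 that rose were POLR3GL, POLR2F, POLR2L and POLR2A, of which POLR2F (0.14) and POLR2L (0.12) were not called without untreated replicate 1 or without low-dose replicate 2, which left 2, and POLR2A (0.10) was not called without low-dose replicate 1. DESeq2 and scaling by total counts each called 10 lower, where they called 2494 and 2696 of all 13422 genes lower.

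In Molm-14 at 11.1 pM against untreated, edgeR called none of the 34 members, where 0.238% of all genes were lower and 0.969% higher. At an unadjusted p under 0.05, 3 members were lower and 1 higher, and DESeq2 and limma-voom likewise called none. With no filter on low counts POLR2I alone was called lower, at −0.22 (adjusted p = 0.0123), with 32.9 and 36.0 CPM at 11.1 pM, against 41.6 and 38.0 CPM untreated.

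Between the doses, 26 members were lower and 3 higher in HL-60 at 500 pM against 112.7 pM, where 26.8% and 25.9% of all genes were lower and higher. All 6 Pol I subunits and all 5 shared subunits were among the lower ones. Scaling by total counts gave 15 lower and 4 higher, where 2107 of all 13422 genes were lower and 4831 higher. In Molm-14 at 100 pM against 11.1 pM, 19 were lower and 1, POLR3GL, was higher, where 18.5% and 19.6% of all genes were lower and higher, and 12 were lower without high-dose replicate 1. The comparisons within a line share their libraries, so they are not independent of each other. By group means, 24 of 34 members stepped down at each dose in HL-60 and 19 in Molm-14. POLR3GL was the only 1 that stepped up at each dose in HL-60, while 7 did so in Molm-14. This order was not counted over all genes. In Molm-14 at 11.1 pM against untreated, no member was called, with 20 lower and 14 higher by sign. The order there is thus one of means alone and was not tested.

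The size of the high-dose change differed between the lines for 18 members. With the Molm-14 change subtracted from the HL-60 change, 16 were more negative in HL-60 and 2 more positive, where 30.3% and 25.1% of all genes were lower and higher. By counts the largest difference was that of POLR3G, at −1.42 ± 0.12 (edgeR adjusted p = 8.13e-09), and POLR1B was at −0.77 ± 0.065 (adjusted p = 9.34e-09). Per unit of length POLR3G went from a mean of 18.5 to 8.8 TPM in HL-60 and from 15.5 to 10.5 TPM in Molm-14. Its gap between the lines was thus smaller in TPM, where it was not tested. Of the Pol I subunits 5 of 6 fell further in HL-60, and POLR1E differed by 0.02 ± 0.079 (adjusted p = 0.875). For POLR3B the difference was 0.01 ± 0.081 (adjusted p = 0.994).

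The 2 members with a positive difference were POLR3GL, at 0.26 ± 0.080 (edgeR adjusted p = 0.00978), and the second POLR2J3, at 0.50 ± 0.20 (adjusted p = 0.0395). POLR3GL lost the call without untreated Molm-14 replicate 1, Molm-14 high-dose replicate 1 or HL-60 high-dose replicate 2 (adjusted p 0.052 to 0.0792), and the second POLR2J3 without untreated Molm-14 replicate 1 or 2, Molm-14 high-dose replicate 2, untreated HL-60 replicate 2 or HL-60 high-dose replicate 2 (adjusted p 0.0835 to 0.602). Neither was called without untreated Molm-14 replicate 1 or without HL-60 high-dose replicate 2. Scaling by total counts gave 8 more negative and 6 more positive, where 2638 of all 13422 genes were lower and 4538 higher. The doses were 500 pM in HL-60 and 100 pM in Molm-14, so that the dose cannot be told apart from the line.

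Before treatment most subunit genes differed between the lines, as most genes did. In untreated HL-60 against untreated Molm-14, 21 members were higher and 8 lower, where 43.9% and 40.1% of all genes were higher and lower. The median was 0.36 on the log2 scale over the members and 0.06 over all genes. These values are counts without regard to length. Per unit of length the member medians were 57.0 TPM in HL-60 and 46.0 TPM in Molm-14, but 25.8 and 29.4 TPM for the subunits found only in Pol III. POLR1A had 230 and 218 CPM in HL-60, against 151 and 152 CPM in Molm-14, but means of 25.2 and 26.7 TPM. Its effective length was 10044 and 9907 bases in HL-60, against 5638 and 6537 bases in Molm-14. POLR2C, POLR2E and POLR2K had been picked by the study from these libraries, so their values here are no independent evidence.

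POLR3F was among the most different, at 26.7 and 27.0 CPM in untreated HL-60, against 13.3 and 12.1 CPM in untreated Molm-14 (1.08 ± 0.074, edgeR adjusted p = 5.83e-11), and so was POLR2F, at 72.7 and 74.5 CPM, against 36.0 and 36.7 CPM (1.02 ± 0.044, adjusted p = 4.93e-14). POLR3G was higher in HL-60 as well, by 0.74 ± 0.073 (adjusted p = 1.34e-08), while POLR3GL was at −0.07 ± 0.057 (adjusted p = 0.271). Per unit of length POLR3G had means of 18.5 TPM in HL-60 and 15.5 TPM in Molm-14, and POLR2F 184 and 86.5 TPM.

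Among the 8 lower in HL-60 were POLR3D and POLR2K, the only members on chromosome 8. POLR3D (chr8:22245133-22254601, plus strand), a Pol III subunit that pairs with POLR3E, had 32.2 and 28.3 CPM in untreated HL-60, against 78.6 and 75.9 CPM in untreated Molm-14, a difference of −1.36 ± 0.055 (edgeR adjusted p = 1.67e-14). POLR2K (chr8:100150623-100154003, plus strand) had 32.5 and 32.1 CPM, against 67.8 and 62.3 CPM, a difference of −1.01 ± 0.049 (adjusted p = 2.61e-13). The 434 genes tested on chromosome 8 had a median difference of −1.34, against 0.06 over all genes, so both members lay near the other genes of their chromosome. Its part in their levels was not tested. POLR3B, on chromosome 12, was also lower, at 35.4 and 34.3 CPM in HL-60, against 53.2 and 50.4 CPM in Molm-14 (−0.57 ± 0.053, adjusted p = 5.39e-09). POLR2J2 and the second POLR2J3 were at −1.55 and −0.95, while the 4 POLR2J identifiers summed gave 0.25 (adjusted p = 0.000162).

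**Figure D5:**
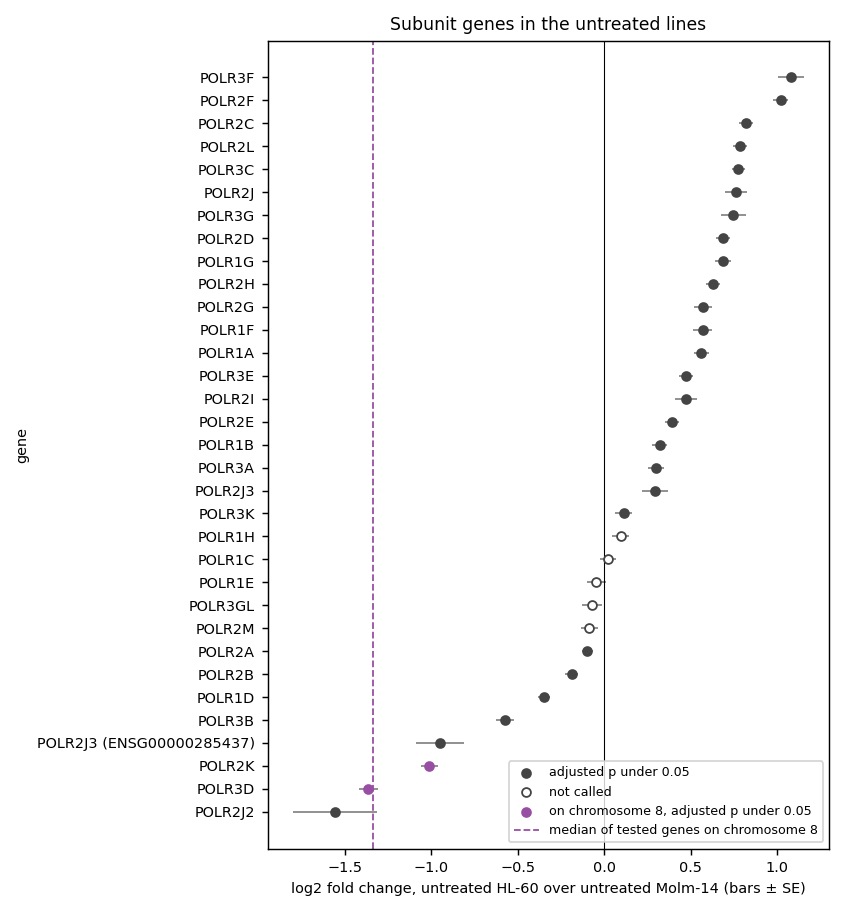
Log2 fold change of untreated HL-60 over untreated Molm-14 (x axis, edgeR estimate with bars of ± SE, 2 libraries each) for 33 subunit genes (y axis, in order of the change); filled marks were called at an adjusted p under 0.05. POLR3D and POLR2K, in purple, lie at −1.36 and −1.01, next to the dashed line at −1.34 that gives the median of the 434 tested genes on chromosome 8.

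Other genes of the transcription machinery were counted from lists of initiation, elongation and assembly factors. The shares of all genes given above hold for these counts too: 37.8% lower and 35.8% higher in HL-60 at 500 pM, and 21.9% and 22.9% in Molm-14 at 100 pM. Of 7 Pol I initiation factors, 6 were lower in HL-60 at 500 pM, and 3 were lower and 1 higher in Molm-14 at 100 pM. TAF1A, a subunit of the Pol I selectivity factor SL1, had the lowest change in both, at −1.23 in HL-60 and −0.57 in Molm-14 (edgeR adjusted p = 1.66e-09 and 0.000144), and UBTF, which opens ribosomal DNA for Pol I, was lower by 0.32 and 0.20. Of 17 Pol III factors, 10 were lower and 3 higher in HL-60, and 11 lower and 1 higher in Molm-14. GTF3A, which directs Pol III to the small ribosomal RNA genes, fell by 0.46 in HL-60 and by 0.25 in Molm-14 (adjusted p = 4.84e-10 and 5.16e-06).

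Of 31 general transcription factors of Pol II, 24 were lower and 3 higher in HL-60, and 9 were lower and 5 higher in Molm-14, and of 30 pausing and elongation factors, 18 were lower and 8 higher in HL-60, and 10 lower and 6 higher in Molm-14. In Molm-14 the numbers of higher genes in both lists were under the share over all genes. SUPT4H1, a subunit of the elongation factor DSIF, fell by 0.89 in HL-60 and by 0.27 in Molm-14 (edgeR adjusted p = 5.9e-13 and 3.76e-05), and ELL2, of the super elongation complex, rose 2.48-fold in Molm-14 (adjusted p = 5.42e-07). In HL-60 ELL2 was lower, at −0.67 at 112.7 pM (adjusted p = 3.67e-07) and −0.23 at 500 pM (adjusted p = 0.00513). Of 16 assembly and import factors, 14 were lower in HL-60 and 8 in Molm-14. RUVBL2, an ATPase of the chaperone complex that assembles polymerases, fell by 0.63 and 0.29 (adjusted p = 1.05e-11 and 3.21e-06). The mitochondrial polymerase gene POLRMT fell by 0.30 in HL-60 and by 0.17 in Molm-14 (adjusted p = 5.46e-05 and 0.0143), and all 4 genes of its list were lower in HL-60.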

How the data were processed

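RNA of 12 samples from 2 cell lines was sequenced, and 1 table per sample was used. Per the submitters' processing notes and the study's methods, the authors trimmed reads with Trim Galore 0.60, mapped them to hg38 with STAR 2.7 and estimated expression with RSEM 1.31 on GENCODE 31. The deposited expected counts, unscaled, were rounded to whole numbers for all tests. The deposited TPM served to compare levels between genes and to describe levels per length. The other deposited value used, the effective length in bases, served to describe POLR3G, POLR1A and POLR2J2. The 92 spike-in entries and 45 pseudoautosomal copies were left out. Symbols, coordinates and types came from GENCODE 44 (60261 of 60617 identifiers matched).

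edgeR 4.0.16 (R 4.3.3) kept 13422 protein-coding genes of level 1 or 2 with filterByExpr, scaled the libraries with TMM factors and fitted all 6 groups together over the 12 libraries (glmQLFit, glmQLFTest). Adjustment was by Benjamini-Hochberg across every gene tested, and a gene was called at 0.05 with no fold threshold. The SE is the log2 fold change divided by the square root of F. All 34 members passed the filter. The code was tested on simulated data. The members, gene lists and tests were chosen with earlier results of these data known. The values of 1 member are not reported here; it is in the counts and not in the figures. The text names the other members and, from the other lists, genes among the 3 with the smallest p at each high dose. Overlapping or near-identical partners are given beside some members only. Left out, for example, are POLR1HASP, a pseudogene on the opposite strand that overlaps 24.5% of the exonic bases of POLR1H, and a protein-coding gene on the same strand that overlaps 21.1% of those of POLR2J2.

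Alternatives were DESeq2 1.42.0, limma-voom (limma 3.58.1), RLE factors, total counts alone, no filter, all gene types, a minimum mean of 50 counts, only the groups compared, thinning to the smallest library, the POLR2J copies summed, the replicate number as a block, and leaving out each library. Where 1 library of a group was left, its spread was taken from the other groups. Deviations of same-numbered samples correlated between −0.07 and 0.08, so the numbers were not taken to pair samples. Depth ran from 21168248 to 63900113 counts per library, which sets the precision of the least abundant members.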

Additional observations from a re-analysis of the deposited data

Results flagged for a closer look

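The change at the high dose differed between the lines for the members named here by the test of the difference itself, given here on the log2 scale as the change in HL-60 (500 pM) minus that in Molm-14 (100 pM). The Pol III genes were POLR3G (−1.42), POLR3A (−0.29), POLR3E (−0.23) and POLR3GL (0.26). The POLR3G value is from counts, and its effective length moved in opposite directions in the lines. Those of Pol I, alone or shared with Pol III, were POLR1B (−0.77), POLR1H (−0.48), POLR1G (−0.44), POLR1C (−0.36), POLR1F (−0.32), POLR1A (−0.31) and POLR1D (−0.26). Those of Pol II or shared by all enzymes were POLR2J3 (−0.45), POLR2B (−0.20), POLR2H (−0.18), POLR2C (−0.17), POLR2D (−0.17) and the second identifier of POLR2J3 (0.50), and the last was not separable from the other POLR2J copies. The counts of the first POLR2J3 are uncertain too, and the POLR2J copies summed gave −0.08 (edgeR adjusted p = 0.373). POLR2C lost the call without untreated Molm-14 replicate 2, Molm-14 high-dose replicate 2 or HL-60 high-dose replicate 2 (edgeR adjusted p 0.067 to 0.154), and POLR2D without either of these Molm-14 libraries, untreated HL-60 replicate 1 or HL-60 high-dose replicate 1 (adjusted p 0.0505 to 0.117). With total-count scaling POLR3A, POLR3E, POLR1F, POLR1D, POLR2B, POLR2H, POLR2C and POLR2D lost the call (adjusted p 0.06 to 0.859). In this comparison dose, medium and serum differed with the line and cannot be told apart from it.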

How the results depend on the processing

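With the replicate number as a block, 27 members were lower in HL-60 at 500 pM and 20 in Molm-14 at 100 pM, the same counts as without it, and 1 call of a single member was lost. Counts that moved by over 1.5 times were these. Without a filter, 1 member was lower in Molm-14 at 11.1 pM, against 0. In HL-60 at 112.7 pM, 10 were lower with DESeq2 and 10 with total counts, against 17. With total counts, 7 were higher in HL-60 at 500 pM (against 3), 15 lower between the HL-60 doses (against 26), and 6 more positive and 8 more negative in the difference between lines (against 2 and 16); with all gene types, 1 was more positive. Leaving out single libraries gave 1 to 2 higher in Molm-14 at 100 pM, 12 to 16 lower between the Molm-14 doses, 2 to 4 higher in HL-60 at 112.7 pM and 0 to 3 more positive between lines. With total counts the sign turned in HL-60 at 500 pM for POLR2F (0.058), POLR2G (0.14), POLR2L (0.12), POLR3C (0.09) and, called under neither scaling, POLR3D (0.09), and between the HL-60 doses for POLR2A (0.019). The POLR2J sum took the place of POLR2J in Molm-14 at 100 pM (0.014), and of POLR2J2 and the second POLR2J3 in HL-60 at 500 pM (−0.066), between the HL-60 doses (−0.022) and between the untreated lines (0.25), and of the second POLR2J3 in the difference between lines (−0.08). The causes of the other moves were not tested; total-count scaling raised the median of all genes itself. Of 1224 values for single members with 1 library left out, 1126 kept their side of the threshold, of which 55 that were not called turned their sign, 89 lost the call and 9 gained it; no value called with all libraries or with 1 left out turned its sign. Depth limits POLR2J2 most, at 37 to 224 counts, and with 2 libraries per group small changes such as those of POLR2A, POLR2F and POLR3C sit close to the threshold.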
